A study of Rattus norvegicus with 4 samples.

Results

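The endocannabinoid genes described here are 7 listed genes of the rat ventral tegmental area, found by their symbols among 32883 genes of the deposited feature lists: the receptor gene Cnr1, the synthesis genes Dagla, Daglb and Napepld, and the degradation genes Mgll, Faah and Abhd6. The ventral tegmental area is the midbrain region that holds the dopamine neurons projecting to the striatum and cortex. Nuclei came from 4 libraries, 2 of female and 2 of male Sprague-Dawley rats aged 90-120 days, and each library pooled frozen tissue of 3 rats of that sex. All rats were experimentally naïve and no group carried a treatment, a transgene or a deletion. Nuclei were stained and sorted before droplet 3′ RNA sequencing, in which each captured RNA molecule is counted once by its molecular identifier (UMI), and no cytoplasm was measured.

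Endocannabinoids are lipid messengers made on demand in one cell and sensed by another. 2-arachidonoylglycerol is made by the diacylglycerol lipases DAGLα (Dagla) and DAGLβ (Daglb) and is broken down mainly by monoacylglycerol lipase (Mgll), with a smaller part taken by ABHD6 (Abhd6). Anandamide can be released from membrane phospholipids by the NAPE phospholipase D (Napepld) and is broken down by fatty acid amide hydrolase (Faah). Both act on the CB1 receptor (Cnr1), which sits largely on presynaptic terminals and lowers transmitter release. In this region, lipid released by dopamine neurons is known to act on CB1 receptors of the glutamate and GABA inputs that reach them. Terminals of neurons lying elsewhere are not in these libraries, because only nuclei were sequenced.

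Nuclei were assigned to 8 gates by raw UMIs of genes outside the list. The dopamine gate (at least 2 UMIs of Th and of Slc6a3) held 291 nuclei. The gate of Slc26a7 with Gad2 (at least 2 and 1 UMIs), below called the Slc26a7 gate, held 114. The GABA gate (at least 2 UMIs of Gad1) held 1162, and the glutamate gate (at least 2 UMIs of Slc17a6 and 0 of Gad1) held 1571. Glial gates asked for a sum of at least 2 UMIs and no UMI of the neuron gate genes: 9139 oligodendrocyte nuclei (Mog and Mobp), 1106 precursor nuclei (Pdgfra), 2030 astrocyte nuclei (Gja1 and Aqp4) and 966 microglia nuclei (Csf1r and C1qa). The thresholds of the Slc26a7 gate and of the glial gates were chosen for this work. In all, 5227 of 21606 barcodes were in no gate, 213 of 3351 nuclei of the neuron gates were left out for a glial sum of at least 4, and pairs of libraries shared 4 to 9 barcodes.

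Gates differed in depth, and marker genes not used for gating matched the labels with exceptions. Median UMIs per nucleus ran from 7529 to 8888 in the neuron gates and from 1331 in microglia to 3113 in astrocytes among the glial gates. The sum of 10 neuron markers was 7130 to 12438 CPM (counts per 1000000 summed UMIs) in the neuron gates of every library, 958 to 1226 CPM in precursors and 183 to 292 CPM in the other glial gates. The dopamine markers summed to 2758 to 3371 CPM in the dopamine gate and to 1255 to 2095 CPM in the Slc26a7 gate, which shared 21 nuclei with the dopamine thresholds and 38 with the glutamate thresholds. The 5 astrocyte markers summed to 8419 to 9365 CPM in astrocytes and to 1091 to 1936 CPM in microglia, with none of them at 0 there. Nearly all of the microglia sum was Slc1a3, at a mean of 1560 CPM (2031 in astrocytes). In microglia Slc4a4 was at 16.9 CPM (5549 in astrocytes), Gfap at 5.75 (240), Slc1a2 at 2.78 (984) and Aldh1l1 at 0.64 (85.8). The part of astrocyte RNA in the microglia values was not tested. The 5 microglia markers summed to at most 9.0 CPM in every other gate.

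Faah, by its symbol, was barely counted. The feature named Faah held 4 UMIs among 88906150, of which 2 were in the glutamate gate, 1 in the GABA gate and 1 in the oligodendrocyte gate, and it passed no filter and was not tested. A second feature of the lists, LOC100911581, carries the gene number that RefSeq (GRCr8) now gives the symbol Faah, and it held 1225 UMIs. It was looked up after the counts of Faah had been seen, it is outside the list of 7, and it is described separately below. The sequences of both features were not compared, and whether reads could match both cannot be seen in the counts.

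The other 6 genes each had a different order of gates, and levels are given as the mean ± SD over 4 libraries. As a mean of 4 neuron gates against a mean of 4 glial gates, Cnr1, Dagla and Abhd6 were higher and Daglb and Mgll lower. These means hide opposite differences between single gates for Dagla, which was lower in each neuron gate than in astrocytes (log2 values from -0.82 to -0.49) and in microglia (-1.11 to -0.78) and far above oligodendrocytes. Daglb was higher in GABA nuclei than in astrocytes by 0.44 (adjusted p = 0.00944, edgeR), a call lost without female 2 and without male 2. In the contrast of means, 5 of 6 tested genes passed the test (edgeR quasi-likelihood test on sums per library and gate, Benjamini-Hochberg adjusted p under 0.05), beside 73.9% of 11846 genes tested. The log2 fold change, neuron minus glial, was 3.02 ± 0.22 (SE) for Cnr1, 0.92 ± 0.10 for Dagla, 0.60 ± 0.08 for Abhd6, -0.96 ± 0.09 for Daglb and -1.73 ± 0.11 for Mgll. Microglia, with 2 UMIs of Cnr1, enter that mean, and over the alternatives the Cnr1 value lay between 2.81 and 3.26. The median over the 6 genes was 0.18, and over all genes it was -0.02. For Napepld the difference was -0.23 ± 0.21 (adjusted p = 0.332, edgeR), between -0.63 and 0.00 over the alternatives and called only without male 2. Oligodendrocytes stood above the neurons for Napepld, and the other glia below or near them. With library totals in place of trimmed-mean (TMM) scaling, the median over all genes moved by 0.24 and the share of called genes that were higher in neurons went from 50.9% to 64.7%. None of the 5 calls changed direction.

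**Figure D1:**
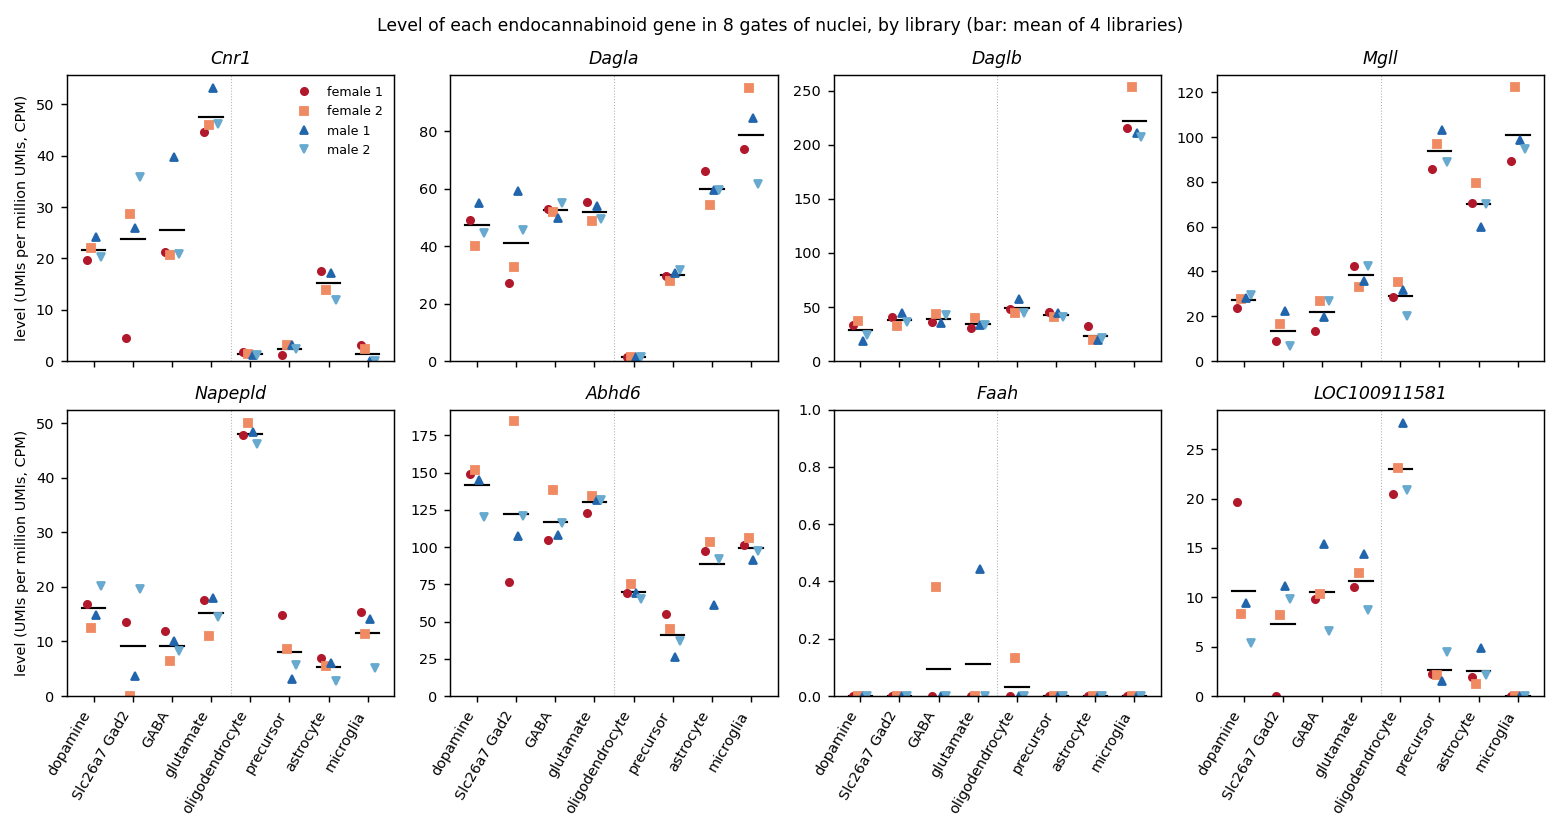
Level (vertical axis, CPM) of the 7 genes and of the second Faah feature in 8 gates (horizontal axis), with 1 point per library and a bar at the mean of 4 libraries. The dotted line parts neuron from glial gates. Cnr1 is highest in the glutamate gate, Daglb in microglia and Napepld in oligodendrocytes, and the vertical scales differ between panels.

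Cnr1, the gene of the CB1 receptor, was highest in glutamate nuclei. Its level there was 44.6, 46.0, 53.2 and 46.2 CPM in female 1, female 2, male 1 and male 2. In GABA nuclei it was 21.2, 20.6, 39.8 and 20.9 CPM, in dopamine nuclei 19.7, 22.1, 24.2 and 20.2 CPM. The lowest glutamate library thus lay above the highest library of both other gates, and male 1 stood apart among the GABA values.

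The level of Cnr1 in the Slc26a7 gate was 4.50, 28.7, 25.9 and 35.9 CPM, where it rested on 26 UMIs. Against glutamate nuclei, the log2 fold change of Cnr1 was -0.89 ± 0.13 in GABA nuclei (adjusted p = 4.24e-07, edgeR), -1.09 ± 0.19 in dopamine nuclei and -0.96 ± 0.28 in the Slc26a7 gate. The last call was lost with DESeq2, without female 1 and without male 1. No call was made between the dopamine, Slc26a7 and GABA gates for Cnr1.

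Among glia, Cnr1 was well above the rest in astrocytes only. Astrocytes held 17.6, 13.9, 17.1 and 11.9 CPM (15.1 ± 2.69, n = 4 libraries), precursors 2.42 ± 0.95 CPM and oligodendrocytes 1.35 ± 0.26 CPM, and microglia had 2 UMIs of Cnr1 among 1441469. The astrocyte level was 31.8% of the glutamate level, where the same quotient over 10 neuron markers had a median of 6.28% and a highest value of 31.3%. In oligodendrocytes Cnr1 stood at 2.85% of the glutamate level, below the median of 3.93% for the neuron markers. Cnr1 in astrocytes differed from precursors by 2.73 ± 0.42 and from oligodendrocytes by 3.29 ± 0.28 on the log2 scale. From dopamine nuclei, the next gate above, it differed by 0.29 ± 0.25 and was not called (adjusted p = 0.319, edgeR).

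Counted by nuclei, 27.8% ± 3.62 of glutamate nuclei held at least 1 UMI of Cnr1. With each nucleus thinned to 2000 UMIs the share was 8.91% ± 0.78 in glutamate nuclei (12 shallower nuclei left out) and 4.37% ± 1.24 in GABA nuclei (4 left out). In oligodendrocytes, with a median of 2278 UMIs against 8314, it was 0.335% before and 0.220% after thinning (3667 left out). For astrocytes the thinned share was 2.65% ± 0.46, with 428 nuclei left out.

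Dagla, the lipase that makes 2-arachidonoylglycerol in postsynaptic neurons, had like levels in the neuron gates and was almost missing from oligodendrocytes. It was 47.2 ± 6.48 CPM in dopamine, 41.2 ± 14.3 in Slc26a7, 52.4 ± 2.10 in GABA and 51.8 ± 3.16 CPM in glutamate nuclei, and none of the 6 pairs of these gates was called. The difference between GABA and glutamate nuclei was -0.01 ± 0.10 on the log2 scale. Oligodendrocytes held 1.37, 1.45, 1.55 and 1.43 CPM, which is 2.80% of the glutamate level and below the 3.93% median of the neuron markers there.

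The other glia did hold Dagla, a gene best known from neurons. Precursors were at 29.9 ± 1.66 CPM, astrocytes at 66.0, 54.4, 59.7 and 59.6 CPM and microglia at 73.8, 95.04, 84.5 and 61.5 CPM. The lowest precursor library, at 27.7 CPM, lay far above the highest oligodendrocyte library. Precursors exceeded oligodendrocytes by 4.08 ± 0.24 and astrocytes exceeded precursors by 1.15 ± 0.15 on the log2 scale. Dagla was 0.50 ± 0.11 higher in astrocytes than in GABA nuclei (adjusted p = 5.05e-05, edgeR), but with library totals the value was 0.20 and not called. Relative to all UMIs, Dagla was called lower in precursors than in dopamine, GABA and glutamate nuclei, and higher in astrocytes and microglia than in each neuron gate. Without male 1 the precursor call against dopamine nuclei was lost, and with library totals the astrocyte calls against GABA and glutamate nuclei were. Per nucleus the order was the reverse, with 0.476 UMIs of Dagla in a glutamate nucleus, 0.209 in an astrocyte and 0.121 in a microglial nucleus.

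Daglb, the lipase that makes the same lipid and is known from macrophages and microglia, was highest in microglia. Its level was 215, 253, 211 and 208 CPM in the microglia gate of female 1, female 2, male 1 and male 2. Oligodendrocytes, the next gate, held 48.3, 44.7, 57.7 and 44.1 CPM. No library of any other gate reached the lowest microglia value, and the difference from oligodendrocytes was 2.01 ± 0.12 on the log2 scale (adjusted p = 5.60e-20, edgeR).

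Precursors held 42.9 ± 2.69, GABA 39.2 ± 4.02, Slc26a7 38.4 ± 5.13, glutamate 34.2 ± 3.85, dopamine 28.5 ± 8.47 and astrocytes 23.1 ± 6.08 CPM of Daglb. Among these, no pair of neuron gates was called, while precursors exceeded astrocytes by 0.72 ± 0.18. Microglia yielded 8.77% of all Daglb UMIs but 1.62% of all UMIs. Per nucleus microglia were not the highest gate, since a microglial nucleus held fewer UMIs in all. Daglb had 0.370 UMIs per nucleus in the Slc26a7 gate, 0.337 in microglia, 0.326 in GABA and 0.314 in glutamate nuclei. In nuclei thinned to 2000 UMIs, 31.0% ± 9.88 of microglia held a UMI of Daglb, but 785 of 966 microglial nuclei were too shallow to enter. The unthinned share was 26.0%, against 27.3% in Slc26a7, 25.7% in GABA, 24.8% in glutamate and 23.1% in dopamine nuclei and 7.36% in astrocytes.

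The promoter of Daglb is shown here because its level set microglia apart. It was matched by symbol in RefSeq (GRCr8), minus strand, at chr12:16215709-16216008, from 250 bases before to 50 after the start of the gene. Capitals mark TATAAA, searched on both strands.

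Daglb: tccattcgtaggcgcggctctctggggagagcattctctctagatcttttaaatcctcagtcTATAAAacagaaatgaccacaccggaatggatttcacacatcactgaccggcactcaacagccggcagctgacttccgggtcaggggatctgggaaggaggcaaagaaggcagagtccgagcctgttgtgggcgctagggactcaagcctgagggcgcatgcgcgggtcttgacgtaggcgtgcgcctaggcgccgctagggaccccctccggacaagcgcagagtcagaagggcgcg

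TATAAA was found in the Daglb promoter and in 14.2% of 33469 rat promoters of the same length. GGGCGG, the GC box read by Sp1, was not found in it, nor was GAGGAAGT, a sequence bound by the myeloid factor PU.1 that 2.42% of promoters hold. Its GC content was 59.0% with 21 CpG pairs, against medians of 51.7% and 7 over all promoters. Of the 7 symbols, 5 had a promoter in the table, and Cnr1 and Dagla had none. The promoter under the symbol Faah carries gene number 100911581, so it is that of LOC100911581 and not of the feature named Faah.

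Mgll is the main enzyme that ends the 2-arachidonoylglycerol signal. Relative to all UMIs, Mgll was 3.31-fold lower in the mean of neuron gates than in that of glial gates. Microglia held 89.2, 122, 98.6 and 94.8 CPM, precursors 85.6, 97.1, 103 and 89.0 CPM, and astrocytes 70.4, 79.7, 59.7 and 70.2 CPM. Oligodendrocytes were lower at 28.7, 35.2, 31.8 and 20.2 CPM. The 3 former gates did not overlap with oligodendrocytes in any library, and no pair among those 3 was called (microglia minus astrocyte 0.40 ± 0.18, adjusted p = 0.0537, edgeR).

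In neurons Mgll was 38.5 ± 4.81 CPM in glutamate, 27.3 ± 2.46 in dopamine, 21.7 ± 6.4 in GABA and 13.5 ± 7.15 CPM in Slc26a7 nuclei. Astrocytes exceeded glutamate nuclei by 1.13 ± 0.13 on the log2 scale (adjusted p = 2.42e-10, edgeR). Oligodendrocytes were not called against glutamate nuclei (glutamate minus oligodendrocyte 0.09 ± 0.12, adjusted p = 0.527, edgeR). Nor were they against dopamine nuclei (oligodendrocyte minus dopamine 0.40 ± 0.21, adjusted p = 0.0825, edgeR). Per nucleus the glutamate gate was instead the highest, with 0.351 UMIs of Mgll, against 0.288 in precursor, 0.279 in dopamine and 0.246 in astrocyte nuclei. GABA nuclei had 0.178, microglia 0.155, Slc26a7 nuclei 0.139 and oligodendrocytes 0.0812. Mgll was lower than in glutamate nuclei by a log2 fold change of -0.90 ± 0.15 in GABA nuclei (adjusted p = 1.32e-05, edgeR) and of -1.58 ± 0.39 in the Slc26a7 gate, there on 14 UMIs. Mgll thus showed the same order between glutamate and GABA nuclei as Cnr1 did. A single oligodendrocyte nucleus held 19 UMIs of Mgll, where no nucleus of another gate held over 8.

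Abhd6, a lipase that hydrolyses 2-arachidonoylglycerol at the inner membrane of neurons, was spread most evenly relative to all UMIs. It was 141 ± 14.6 CPM in dopamine, 130 ± 4.96 in glutamate, 122 ± 45.4 in Slc26a7 and 117 ± 15.2 CPM in GABA nuclei. Glia followed, with microglia at 99.2 ± 6.28, astrocytes at 88.4 ± 18.9, oligodendrocytes at 69.6 ± 4.01 and precursors at 40.7 ± 12.1 CPM. The step from oligodendrocytes down to precursors was 0.98 ± 0.15 on the log2 scale (adjusted p = 1.11e-07, edgeR). Per nucleus, Abhd6 had 1.45 UMIs in dopamine and 0.974 in GABA nuclei, but 0.309 in astrocytes and 0.125 in precursors. The even spread thus holds relative to all UMIs only.

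Among neurons only dopamine against GABA nuclei was called for Abhd6, by 0.34 ± 0.12 (adjusted p = 0.0214, edgeR). The dopamine values of 149, 152, 145 and 120 CPM and the GABA values of 105, 138, 108 and 116 CPM overlapped, and the call was lost in 6 of 14 alternatives, among them library totals, no library block, and leaving out female 1 or male 1. In nuclei thinned to 2000 UMIs, 25.1% ± 1.99 of dopamine nuclei held a UMI of Abhd6, against 70.1% before thinning. The thinned share was 7.80% ± 1.52 in precursors, where 295 nuclei were left out.

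Napepld, the phospholipase that releases N-acylethanolamines such as anandamide, was highest in oligodendrocytes. Their level was 47.9, 50.0, 48.4 and 46.1 CPM. Dopamine nuclei, next in order, held 16.9, 12.4, 14.8 and 20.2 CPM, and no library of another gate reached the oligodendrocyte values. The difference between both gates was 1.91 ± 0.21 on the log2 scale (adjusted p = 5.90e-11, edgeR).

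Oligodendrocytes yielded 58.0% of all Napepld UMIs but 27.2% of all UMIs. Glutamate nuclei held 15.3 ± 3.22, microglia 11.5 ± 4.56, Slc26a7 9.19 ± 8.96, GABA 9.17 ± 2.32, precursors 8.02 ± 5.06 and astrocytes 5.31 ± 1.78 CPM. Oligodendrocytes exceeded precursors by 2.75 ± 0.24 and astrocytes by 3.39 ± 0.22 on the log2 scale. Oligodendrocyte markers in dopamine nuclei stood at a median of 0.826% of their oligodendrocyte level, while the Napepld level there was 16.1 ± 3.30 against 48.1 ± 1.59 CPM.

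Within neurons, Napepld was lower in GABA than in glutamate nuclei, by a log2 fold change of -0.79 ± 0.21 (adjusted p = 0.00577, edgeR). It was higher in dopamine than in GABA nuclei by 0.87 ± 0.31 (adjusted p = 0.0291, edgeR), with dopamine values from 12.4 to 20.2 and GABA values from 6.48 to 11.8 CPM that did not overlap. The second call was lost without female 2, without male 1 and without male 2. Thinned to 2000 UMIs, 8.97% ± 0.37 of oligodendrocytes held a UMI of Napepld, against 1.04% ± 0.24 of astrocytes. Before thinning, the shares were 11.7% and 1.59%. In dopamine and glutamate nuclei, which held more UMIs in all, the shares were 12.9% and 12.1% before and 2.82% and 2.93% after thinning. Per nucleus, Napepld had 0.162 UMIs in dopamine, 0.141 in glutamate and 0.133 in oligodendrocyte nuclei, so the oligodendrocyte peak holds relative to all UMIs only.

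The promoter of Napepld is shown for the gene with the oligodendrocyte peak. It lies on the plus strand at chr4:14253010-14253309 (RefSeq, GRCr8, matched by symbol, same window). Capitals mark the GC box GGGCGG on either strand.

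Napepld: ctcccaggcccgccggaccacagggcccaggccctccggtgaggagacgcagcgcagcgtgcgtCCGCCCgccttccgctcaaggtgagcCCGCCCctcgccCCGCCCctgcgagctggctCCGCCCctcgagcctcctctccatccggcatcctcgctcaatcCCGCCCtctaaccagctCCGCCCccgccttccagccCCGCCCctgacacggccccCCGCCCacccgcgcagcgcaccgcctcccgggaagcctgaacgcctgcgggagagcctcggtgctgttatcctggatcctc

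The Napepld promoter had a GC content of 74.7% and 32 CpG pairs. GGGCGG occurred in 4 of the 5 promoters matched (Napepld, Mgll, Abhd6 and, under the symbol Faah, LOC100911581) and in 33.1% of all rat promoters. CACGTG, the E-box, was found for Mgll alone among the 5 and in 6.42% of all promoters. TGACGTCA, the full cAMP response element, was in none of the 5 and in 1.83% of all. These matches describe the letters in the window only.

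LOC100911581, the second Faah feature, was also highest in oligodendrocytes. Its level there was 20.4, 23.1, 27.6 and 20.8 CPM, against 11.1, 12.5, 14.4 and 8.73 CPM in glutamate nuclei. All oligodendrocyte libraries lay above all glutamate libraries, and the difference was 1.36 ± 0.17 on the log2 scale (adjusted p = 9.67e-10, edgeR). Dopamine nuclei held 10.7 ± 6.22 and GABA nuclei 10.5 ± 3.62 CPM. Astrocytes were at 2.52 ± 1.62 and precursors at 2.62 ± 1.30 CPM of LOC100911581. Per nucleus this feature had 0.110 UMIs in dopamine, 0.109 in glutamate and 0.0645 in oligodendrocyte nuclei, so its peak also holds relative to all UMIs only.

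No UMI of LOC100911581 was found in microglia among 1441469, which allows up to 2.08 CPM (3 UMIs over the gate, counting error only). Pooled over libraries, oligodendrocytes were at least 10.9-fold higher than that floor. This feature and Napepld, the degrading and a synthesizing enzyme of anandamide by name, had their highest gate in common, and their Pearson r of mean log2(CPM + 1) over the 8 gates was 0.61, given as a description of gates that share libraries and depth.

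**Figure D2:**
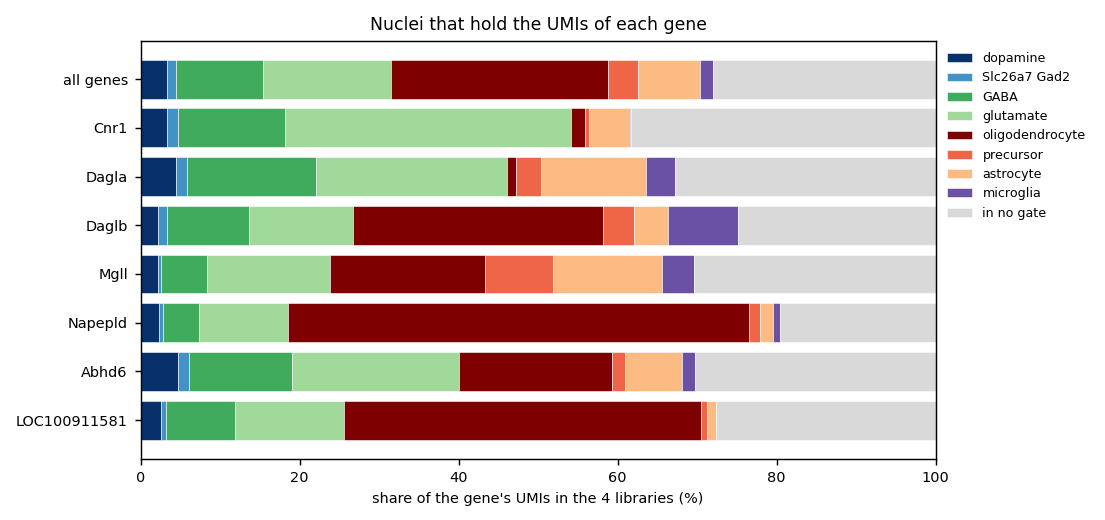
Share of the UMIs of each gene (horizontal axis, %) found in the nuclei of each gate, over 4 libraries, with all genes together in the top row. Oligodendrocytes hold 27.2% of all UMIs, 58.0% of Napepld and 1.73% of Cnr1 UMIs, and 38.4% of Cnr1 UMIs lie in nuclei of no gate.

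Nuclei of no gate also matter for the receptor. They held 38.4% of all Cnr1 UMIs, glutamate nuclei 36.0% and GABA nuclei 13.5%. The ungated nuclei had a Cnr1 level of 29.4 ± 4.86 CPM, and they held both neuron and glial markers. Their neuron markers were at 5466 to 6260 CPM, nearer to the neuron than to the glial gates. Their oligodendrocyte markers were at 4359 to 6343 CPM, against 186 to 413 CPM in the neuron gates. Precursor markers were at 662 to 829 and astrocyte markers at 571 to 984 CPM. Which ungated nuclei held the Cnr1 UMIs was not tested. Dagla had 32.7% and Abhd6 30.3% of their UMIs in ungated nuclei, beside 28.1% of all UMIs.

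Taking the neuron gates pair by pair, 8 of 36 tests of the 6 genes were called. For dopamine against GABA nuclei 2 of 6 genes were called (29.5% of all genes), for dopamine against glutamate 1 of 6 (25.0%), and for GABA against glutamate 3 of 6 (12.8%). For Slc26a7 against glutamate nuclei 2 of 6 were called (10.0%), and none for dopamine against Slc26a7 (14.9%) or Slc26a7 against GABA (11.0%). At an unadjusted p under 0.05 those last comparisons held 1 and 0 genes. All 6 differences called against the glutamate gate were lower than glutamate, and the median over the 6 genes for GABA minus glutamate was -0.49, beside 0.00 for all genes. Leaving out male 1 left 5 of the 8 calls.

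Between single neuron and glial gates, 72 of 96 tests were called, 16 per gene. All 14 Cnr1 calls and all 11 Abhd6 calls were higher in the neuron gate, and all 14 Mgll calls were lower. Of 15 Dagla calls 7 were higher in the neuron gate (against oligodendrocytes and precursors) and 8 lower (against astrocytes and microglia). Of 11 Daglb calls 1 was higher and 10 lower, and of 7 Napepld calls 3 were higher and 4 lower. Against oligodendrocytes 5 of 6 genes were called for dopamine nuclei (70.7% of all genes), 6 for Slc26a7 (58.5%), 6 for GABA (77.5%) and 5 for glutamate nuclei (79.4%). Against precursors the calls were 5 (51.6%), 3 (41.5%), 4 (56.1%) and 6 (57.4%) in the same order of neuron gates. Against astrocytes they were 4 (62.4%), 2 (53.5%), 4 (70.1%) and 5 (71.0%), and against microglia 5 (63.3%), 4 (56.7%), 4 (68.0%) and 4 (68.3%).

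**Figure D3:**
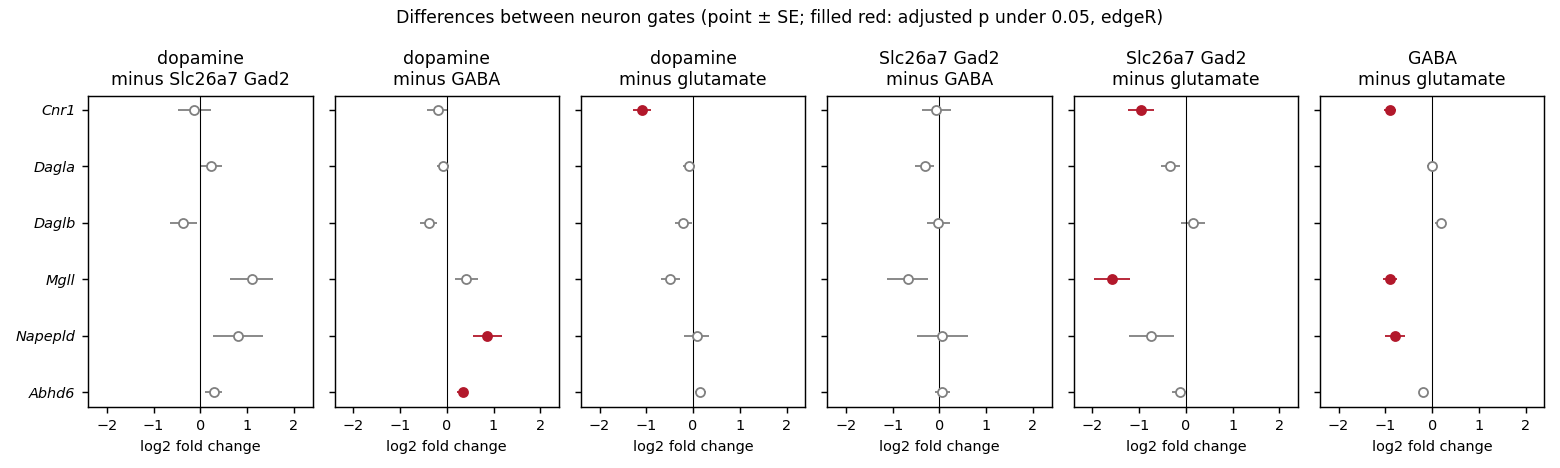
Log2 fold change (horizontal axis, first named gate minus second) of 6 genes in the 6 pairs of neuron gates, as point ± SE from the edgeR fit. Filled red points passed an adjusted p of 0.05. The 6 calls against the glutamate gate lie to the left of 0, and both dopamine minus GABA calls (Napepld, Abhd6) lie to the right.

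Between pairs of glial gates, 24 of 36 tests were called. The calls numbered 5 of 6 for oligodendrocytes against precursors (61.7% of all genes), 6 of 6 against astrocytes (67.1%) and 4 of 6 against microglia (55.4%). They numbered 4 of 6 for precursors against astrocytes (52.5%), 3 of 6 for precursors against microglia (54.3%) and 2 of 6 for astrocytes against microglia (56.5%). With 2 UMIs of Cnr1 in microglia, the fitted fold change of that pair depends on the prior count and is not given. The call of Daglb between oligodendrocytes and precursors (0.41 ± 0.14) was lost with DESeq2, library totals and without male 1. The call of Abhd6 between oligodendrocytes and astrocytes (-0.30 ± 0.10) was lost without the library block, without female 1 and without male 2.

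Within the GABA gate, Cnr1 varied most between subsets set by other genes. Nuclei with a UMI of Lum (125 of 1162) held 0, 1, 0 and 2 UMIs of Cnr1 in female 1, female 2, male 1 and male 2, and the 1037 other GABA nuclei held 255. The pooled levels were 2.94 and 29.2 CPM, a ratio of 0.101 with an exact 95% interval of 0.0207 to 0.298 from counting error only. Cnr1 was called as lower in this subset, also in each alternative (15.4% of all genes were called). Dagla went the other way in Lum nuclei, by 0.63 ± 0.21, a call lost in 9 of 13 alternatives, with DESeq2, library totals and leaving out either male library among them.

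GABA nuclei with Meis2, a transcription factor gene, were low in Cnr1 as well. They held 11.2, 10.5, 19.6 and 6.22 CPM, against 26.1, 28.4, 47.8 and 32.4 CPM in the rest of the gate. In each library the Meis2 nuclei were below the rest, and the log2 fold change was -1.43 ± 0.24 (adjusted p = 5.4e-05, edgeR, 12.1% of genes called), between -1.55 and -1.26 over the alternatives. Dagla was 0.51 ± 0.14 higher in Meis2 nuclei (adjusted p = 0.0140, edgeR), a call lost with DESeq2, with thresholds 1 UMI higher, without female 2 and without male 1. In 248 GABA nuclei with Gata3, Mgll was 0.89 ± 0.26 higher (11.5% of genes called), a call lost in 5 alternatives, with DESeq2 and without either female library among them. None of the tested genes was called in the 87 Isl1 nuclei (6.79% of genes called), of which 61 came from male 1. Nor was any called in the 17 GABA nuclei with Slc17a6 (0.875%). Napepld was not tested in the Isl1 and Lum subsets. At an unadjusted p under 0.05, Dagla, Daglb and Mgll of the Isl1 subset and Cnr1 and Mgll of the Slc17a6 subset passed.

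Within the glutamate gate, Cnr1 was higher and Napepld lower in 2 of 3 subsets. In the 467 nuclei with C1ql1, a secreted synaptic protein gene, Cnr1 was 64.9, 56.3, 71.1 and 75.2 CPM, against 36.1, 39.4, 46.7 and 34.2 CPM in the rest. The groups did not overlap, and the log2 fold change was 0.78 ± 0.13 (adjusted p = 0.000317, edgeR, 7.23% of genes called), a call kept in each alternative. In the 654 nuclei with Lmx1a, a midbrain and hypothalamic transcription factor gene, Cnr1 was 0.48 ± 0.11 higher (11.1% of genes called), a call lost with DESeq2, with subset genes 1 UMI higher and without either male library.

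Napepld was 9.84 ± 1.09 CPM in C1ql1 nuclei and 17.4 ± 4.37 in the rest, and 9.92 ± 0.91 CPM in Lmx1a nuclei and 19.2 ± 5.66 in the rest. The log2 fold changes of Napepld were -0.88 ± 0.25 and -1.03 ± 0.23, and the calls were lost in 7 and 3 of 13 alternatives, DESeq2, without male 1 and without male 2 among both. In the 343 nuclei with Sim1 or Foxb1, Napepld was instead higher at 26.9, 14.4, 29.4 and 25.5 CPM, against 13.9, 10.5, 13.8 and 10.7 CPM. Each Sim1 or Foxb1 value exceeded that of the rest of its library, by 1.08 ± 0.21 over all (adjusted p = 0.00399, edgeR, 7.43% of genes called), a call lost with subset genes 1 UMI higher and without male 1. A nucleus could belong to several subsets.

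**Figure D4:**
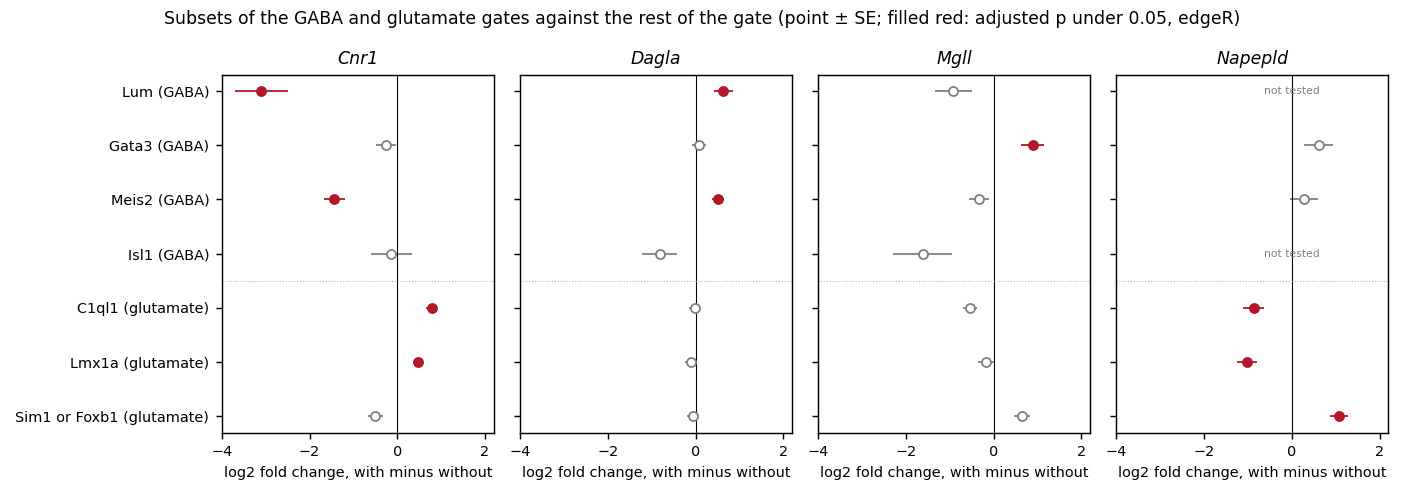
Log2 fold change (horizontal axis, nuclei with the subset gene minus the rest of the gate) of 4 genes in subsets of the GABA and glutamate gates, as point ± SE from edgeR. Filled red points passed an adjusted p of 0.05. Cnr1 is lower in Lum and Meis2 nuclei and higher in C1ql1 and Lmx1a nuclei, and the Lum value of Cnr1 rests on 3 UMIs, so that its fitted size depends on the prior count.

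The wider pathway was read from a list of 23 genes, of which 16 were tested between gates. Against glia, 8 were higher in neuron gates and 5 lower, beside 73.9% of all genes called, with a median of 0.14 beside -0.02 for all genes. The phospholipase C genes Plcb1 and Plcb4, which make the diacylglycerol used by DAGL, were higher in neurons by 2.22 ± 0.11 and 2.21 ± 0.07 on the log2 scale. Plcb1 was nonetheless highest in astrocytes, at 1396 ± 197 CPM, and was 432 ± 76.4 CPM in dopamine nuclei. Gdpd1 and Pla2g4e, enzymes of N-acylethanolamine precursors, were higher in neurons by 1.75 ± 0.07 and 4.48 ± 0.28, and Cnrip1, which binds the CB1 receptor tail, by 0.98 ± 0.12. Abhd12, a further 2-arachidonoylglycerol hydrolase, was lower in neurons by a log2 value of -0.80 ± 0.05. Also lower were Plcd1, another phospholipase C gene (-1.03 ± 0.27), Abhd4 (-0.75 ± 0.20), Fabp7 (-3.55 ± 0.38) and Inpp5d (-3.57 ± 0.45). Abhd12 was 876 ± 87.3 CPM in microglia, where Daglb also peaked.

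Dopamine nuclei differed from glutamate nuclei in 8 of the 16 pathway genes, with 6 higher and 2 lower, beside 25.0% of all genes called. Plcd1 was higher by 1.97 ± 0.40, Plcb1 by 1.30 ± 0.11 and Plcb4 by 0.91 ± 0.11. Fabp5, a fatty acid binding protein that carries anandamide, was higher by 1.07 ± 0.19. The 2 lower genes were Pla2g4e (-0.80 ± 0.28) and Gdpd1 (-0.25 ± 0.09). Against GABA nuclei 5 were higher and 2 lower (29.5% of all genes called), with Plcb4 at 603 ± 29.6 CPM in dopamine and 374 ± 26.4 CPM in GABA nuclei. Fabp5 was 144 ± 32.9 CPM in GABA nuclei and lower in dopamine nuclei by a log2 value of -1.22 ± 0.16. Cnr2, the gene of the CB2 receptor, had 44 UMIs in microglia (31.2 ± 7.57 CPM), 4 in oligodendrocytes and 0 in dopamine nuclei and in astrocytes.

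**Figure D5:**
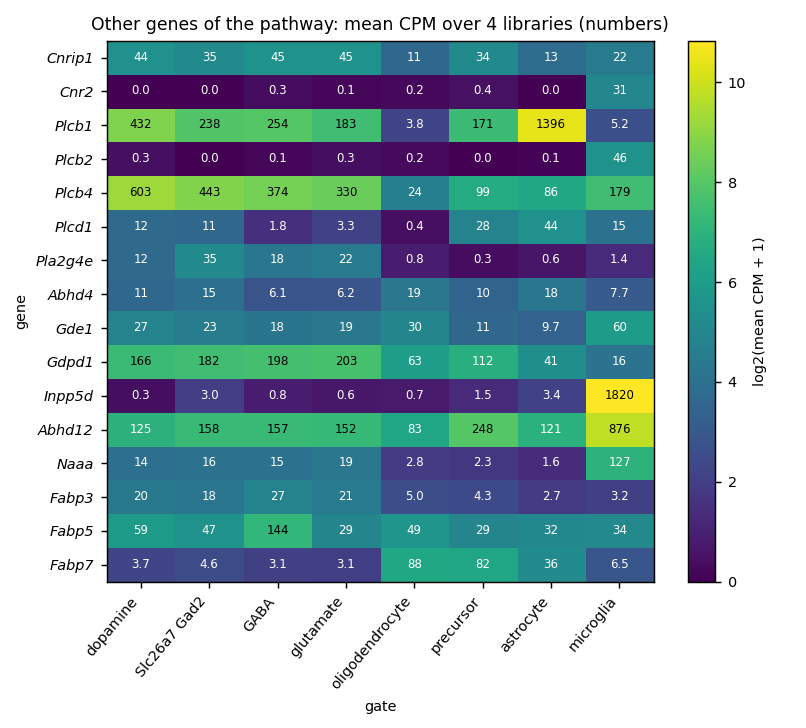
Mean level over 4 libraries of the 16 tested pathway genes (rows) in 8 gates (columns), with the CPM printed in each cell and the colour on a log2(CPM + 1) scale. Plcb1 peaks in astrocytes at 1396 CPM and Abhd12 in microglia at 876 CPM, and Plcb4 is highest in dopamine nuclei at 603 CPM.

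Genes with the most similar pattern over the 8 gates were taken among 8105 genes by Pearson r of mean log2(CPM + 1), as a description over gates that share libraries and depth. This r takes no account of the size of the differences between gates. For Cnr1 they were Wdr78 (r = 0.98), Oxnad1 (0.98) and Tmem175 (0.98), and for Dagla Dnm1l (0.99), Inpp4a (0.98) and Fam20c (0.98). Over the gates Wdr78 ran from 14.5 to 98.3, Oxnad1 from 21.5 to 48.0 and Tmem175 from 103 to 164 CPM, where Cnr1 ran from 1.33 to 47.5 CPM. For Daglb, Lgmn led with 0.99, and Lgmn stood at 2344 CPM in microglia. Cdk6 was nearest to Mgll (0.94), Pum3 and Ndrg1 to Napepld (0.96 for both) and Pcyt1a to Abhd6 (0.98). Ndrg1, at 213 CPM in oligodendrocytes, shared the oligodendrocyte peak of Napepld, while Pum3 varied little, from 23.7 to 35.9 CPM. Between members, the r over gates was 0.68 for Cnr1 and Abhd6, 0.45 for Cnr1 and Dagla, 0.07 for Dagla and Daglb and -0.76 for Dagla and Napepld.

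Female and male libraries were compared with 2 against 2 in each gate, and no endocannabinoid gene was called. Of 38 gene and gate pairs 0 passed an adjusted p of 0.05 with edgeR, and 1 passed at an unadjusted p under 0.05. DESeq2 called 0, with 0 at an unadjusted p under 0.05. Among all genes the share called was 0.0679% in dopamine, 0.107% in Slc26a7, 0.0931% in GABA and 0.0553% in glutamate nuclei. It was 0.0765% in oligodendrocytes, 0.0767% in precursors, 0.0885% in astrocytes and 0.103% in microglia. The 1 pair was Abhd6 in precursors. The female pools had 54.8 and 44.8 CPM and the male pools 26.2 and 37.2 CPM without overlap, a difference of 0.65 ± 0.29 on the log2 scale (adjusted p = 0.763, edgeR). Over all nuclei 0 of 6 genes were called with edgeR (0 at an unadjusted p under 0.05) and with DESeq2 (1 at an unadjusted p under 0.05), beside 0.0310% of all genes. Over all nuclei the female pools had 19.6 and 16.1 CPM of Cnr1 and the male pools 29.5 and 21.3 CPM, a log2 difference of -0.46 ± 0.19 (adjusted p = 0.873, edgeR). Glutamate nuclei, where Cnr1 was highest, were 6.95% and 4.43% of barcodes in females and 11.9% and 7.23% in males, and their part in that difference was not tested.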

How the data were processed

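Each library's deposited matrix holds raw UMI counts per gene and barcode, per the file headers, which name software version 3.0.2. Cell Ranger and the genome build rn6 are named in the submitters' processing notes. No deposited barcode held under 501 UMIs, and library totals were 19714338 to 25824289. The sources used here do not state whether free RNA had been subtracted. Members, lists and thresholds were chosen with earlier results of these data known.

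Each nucleus entered 1 gate, tested in the order Slc26a7 with Gad2, dopamine, GABA, glutamate, glia. Counts were summed per library and gate (32 sums) and tested in 1 fit with edgeR 4.0.16 (R 4.3.3; quasi-likelihood test, TMM scaling, filterByExpr, library as a block), p-values adjusted over all genes tested. Subsets were fitted with 8 sums each, and sex with 4 sums and no covariate. Each SE was obtained by dividing the absolute log2 fold change by the root of its F statistic. CPM are counts per 1000000 summed UMIs. Thinned shares are expected values. Each library pools separate rats, so n counts pools. DESeq2 1.42.0, scaling, filters, gate rules, doublets (Scrublet in scanpy 1.11.5, 980 barcodes, 4.54%) and single libraries were varied. Doublets were kept in the reported values. Female and male replicates share a number by title only.

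Named were the 7 genes, pathway genes that passed the filter and the 3 genes most like each, with at least 20 CPM on average. Exceptions are LOC100911581 and the listed marker genes. Lhfpl3 and Pecam1 were not found by symbol. In simulated counts (dispersion 0.02, at least 200 UMIs), log2 changes of 1 and 2 were recovered in 72% and 92% for dopamine minus GABA, 65% and 94% for microglia minus astrocyte, 94% and 100% for the Meis2 subset and 72% and 100% for sex in glutamate nuclei. False calls there were 4.09%, 7.02%, 6.28% and 2.27% of calls. Only 200 genes were changed in each simulation, all sums otherwise shared the same profile, and the dispersion was set in advance. These rates therefore need not hold for gates that differ in many genes, or for genes with fewer UMIs.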

Additional observations from a re-analysis of the deposited data

Results flagged for a closer look

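Among 57 gene and gate combinations with at least 12 UMIs, 3 had a library whose gap to the nearest other library was large for the range of the 4 (Dixon's test), where chance gives about 1 in 20. The level of Cnr1 in GABA nuclei was 39.8 CPM in male 1 and 20.6 to 21.2 CPM in the others. In male 1 it was 42.5 CPM in Isl1 nuclei and 39.1 CPM in the rest of the gate, and 61 of the 87 Isl1 nuclei came from that library. Daglb in astrocytes was 32.1 CPM in female 1 and 19.3 to 21.4 CPM in the others. Daglb in microglia was 253 CPM in female 2 and 208 to 215 CPM in the others.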

How the results depend on the processing

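Of 47 calls between neuron gates, between glial gates, between their means and in subsets, 35 held in each alternative run, 12 were lost in at least 1 and none reversed. Of the 72 calls between single neuron and glial gates, 59 held in each, 13 were lost in at least 1 and none reversed. Of 8 calls between neuron gates, 5 to 7 were made with 1 library left out, with 5 without male 1. The 10 subset calls became 4 with DESeq2 and 6 with subset genes 1 UMI higher, and 5 to 10 with 1 library left out (5 without male 1, 6 without male 2). DESeq2 also called fewer genes of all kinds in subsets, 658 against 1201 for Meis2 and 330 against 740 for C1ql1. Thinning to 1000 in place of 2000 UMIs gave shares with a UMI of 4.66% for Cnr1 in glutamate and 2.28% in GABA nuclei, 5.05% for Dagla in glutamate nuclei, 19.1% for Daglb in microglia, 8.28% for Mgll in precursors, 4.88% for Napepld in oligodendrocytes and 13.6% for Abhd6 in dopamine nuclei. Library totals moved the median of all genes by up to 0.39 in a pair of gates. They moved the share of calls that were higher by over 10 points in 10 of 16 neuron and glial pairs (46.5% to 52.3% became 57.7% to 67.4%), in 3 of 6 glial pairs (48.4% to 57.1% became 37.4% to 58.5%) and in 2 of 8 subsets. Few UMIs limit Cnr1 in microglia and the Lum subset and Napepld and Mgll in the Slc26a7 gate.

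With the replicate number as a block, 0 gene and gate pairs and 0 genes over all nuclei were called between sexes, as without it, with 2 and 1 at an unadjusted p under 0.05. The numbers are shared by title only, and across 16148 genes the same-number differences correlated at 0.30. Over all genes the block moved the calls from 9 to 653 in oligodendrocytes and from 6 to 22 in dopamine nuclei.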
